A study of Homo sapiens with 9 samples.

Results

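ARPE-19 cells, an established line of human retinal pigment epithelium, were compared after 100 µg/ml cigarette smoke condensate and after vehicle. The comparison used the 3 arrays whose titles name vehicle and the 3 whose titles name 100 µg/ml, 6 of the 9 arrays in the series, across the 14207 genes that could be read from probe sets with exactly 1 gene. The other 3 arrays, from cells given 250 µg/ml, entered the fit and the comparison of doses. In all groups the cells had grown to confluence in DMEM/F12 with 10% serum and were then kept in DMEM/F12 with 1% albumin. The condensate was a commercial DMSO solution of 40 mg/ml with 6% nicotine, diluted in DMEM/F12. The labels do not say whether the vehicle held DMSO, nor how long the treatment lasted. All arrays come from 1 cell line, and nothing in the labels states that the replicates were separate cultures, so p-values here measure only how far these samples spread, and that spread may be technical.

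Smoke condensate holds aromatic hydrocarbons, electrophiles and nicotine. Aromatic hydrocarbons bind the aryl hydrocarbon receptor (AHR), which enters the nucleus and switches on genes of cytochrome P450 enzymes. Electrophiles release the transcription factor NRF2 from its inhibitor KEAP1, and NRF2 then drives genes of glutathione synthesis, haem breakdown and detoxification. Unfolded protein in the endoplasmic reticulum (ER) triggers the unfolded protein response, in which ATF6, XBP1 and ATF4 raise chaperones, degradation factors and amino acid supply. The pigment epithelium supports the photoreceptors and is a site of damage in smoking-related macular disease. The title of the series asks about oxidative stress, mitochondria and the unfolded protein response in these cells.

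The proximal promoters below are shown for 4 genes that represent these programmes: CYP1A1 for AHR, GCLM for NRF2, and HYOU1 and HSPA5 for the unfolded protein response. Each is the 250 bases before the transcript start from RefSeq on GRCh38.p14, written 5′ to 3′ in the direction of the gene. All 4 genes lie on the minus strand, CYP1A1 at chr15:74725529-74725778, GCLM at chr1:93909431-93909680, HYOU1 at chr11:119057206-119057455 and HSPA5 at chr9:125241344-125241593. Capitals mark matches, on either strand, to the core of the xenobiotic response element (GCGTG), the core of the antioxidant response element (TGACNNNGC) and the ER stress response elements I (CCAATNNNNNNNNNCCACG) and II (ATTGG and CCACG parted by 1 base).
CYP1A1: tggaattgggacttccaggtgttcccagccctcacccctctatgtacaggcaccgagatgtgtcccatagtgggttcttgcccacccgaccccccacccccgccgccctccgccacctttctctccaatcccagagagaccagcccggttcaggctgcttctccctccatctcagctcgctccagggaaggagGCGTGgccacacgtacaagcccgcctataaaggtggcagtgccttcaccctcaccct
GCLM: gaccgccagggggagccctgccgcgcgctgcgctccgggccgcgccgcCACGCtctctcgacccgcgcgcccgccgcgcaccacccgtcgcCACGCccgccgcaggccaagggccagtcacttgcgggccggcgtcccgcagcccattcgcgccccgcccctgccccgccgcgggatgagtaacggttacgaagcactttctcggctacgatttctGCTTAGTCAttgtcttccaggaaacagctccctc
HYOU1: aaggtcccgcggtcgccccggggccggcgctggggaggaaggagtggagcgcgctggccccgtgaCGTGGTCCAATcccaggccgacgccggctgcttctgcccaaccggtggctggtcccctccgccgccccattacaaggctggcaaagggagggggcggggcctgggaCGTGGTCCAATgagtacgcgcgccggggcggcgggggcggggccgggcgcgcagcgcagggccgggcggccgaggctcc
HSPA5: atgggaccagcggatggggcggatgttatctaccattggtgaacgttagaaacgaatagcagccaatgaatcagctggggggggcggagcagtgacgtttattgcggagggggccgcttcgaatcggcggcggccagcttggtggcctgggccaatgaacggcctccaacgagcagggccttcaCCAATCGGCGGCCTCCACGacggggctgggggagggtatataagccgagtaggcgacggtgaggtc
CYP1A1 held GCGTG once, 57 bases before the start. GCLM held the antioxidant core 34 bases before the start and GCGTG at 202 and 159 bases. HYOU1 held the second ER element at 185 and 79 bases, and HSPA5 held the first at 66 bases. No matches overlapped each other. Over the 11371 promoters of tested genes that the table holds, GCGTG occurred in 40.2%, the antioxidant core in 11.7%, the first ER element in 0.123% and the second in 0.0704%. The amino acid response element TGATGNAA, found in 2.03%, had no match in these 4 promoters. A match describes the letters in the window and does not show binding.

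Values are log2 summaries of probe intensity, so a difference of 1 is a doubling. Array medians lay between 4.42 and 4.59 over all 9 arrays, and the within-group correlation was 0.970 to 0.978 for vehicle and 0.980 to 0.992 for 100 µg/ml. On the first principal component treated replicates 1 and 2 lay at -21.3 and -21.5 and treated replicate 3 at 5.78, nearer to the vehicle arrays at 15.4 to 45.4. Keratin genes KRT8 and KRT18 had vehicle means of 11.3 and 8.38, and the eye transcription factors OTX2 and MITF 8.99 and 7.62. The visual cycle genes RPE65 and RLBP1 and the channel gene BEST1, which mark mature pigment epithelium, had vehicle means of 2.67, 3.16 and 2.80, near the lower quartile of the vehicle arrays, 3.04 to 3.10. SERPINF1 and PMEL, also listed as pigment epithelium markers, had 3.58 and 5.08, and PMEL is a melanocyte marker too. Among markers of other cell types, the 10 measured endothelial genes had vehicle means of 2.48 to 4.17 and the pan-leukocyte gene PTPRC one of 2.82, while CD68, a lysosomal gene also used as a macrophage marker, had 9.21. Of the neuron markers, SYT1 had 7.80 and SNAP25 2.67.

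Condensate at 100 µg/ml raised 8 genes and lowered 1 at a limma adjusted p under 0.05, which was 0.0633% of the genes tested, 0.0563% higher and 0.00704% lower. A change of at least 2-fold was seen in 1.95%. The 8 were CYP1A1, SLC7A11, HMOX1, CHRNA5, LRP8, HYOU1, SLC1A4 and MLEC, and the gene that fell was GSX2. The median change over all genes was -0.05, and 40.8% of genes had a treated mean above the vehicle mean. At an unadjusted p under 0.05 lay 14.6% of genes, 994 higher (7.0%) and 1087 lower (7.65%). The arrays did not overlap between groups in 18.3% of genes, 6.41% higher and 11.9% lower. Of those 1687 lower genes, 980 belonged to the 3552 dimmest genes, with means of 2.00 to 3.06, where the median change was -0.11. In the 3552 brightest genes the median change was 0.09, with 397 genes higher and 156 lower without overlap. What moves the dim genes was not tested.

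**Figure D1:**
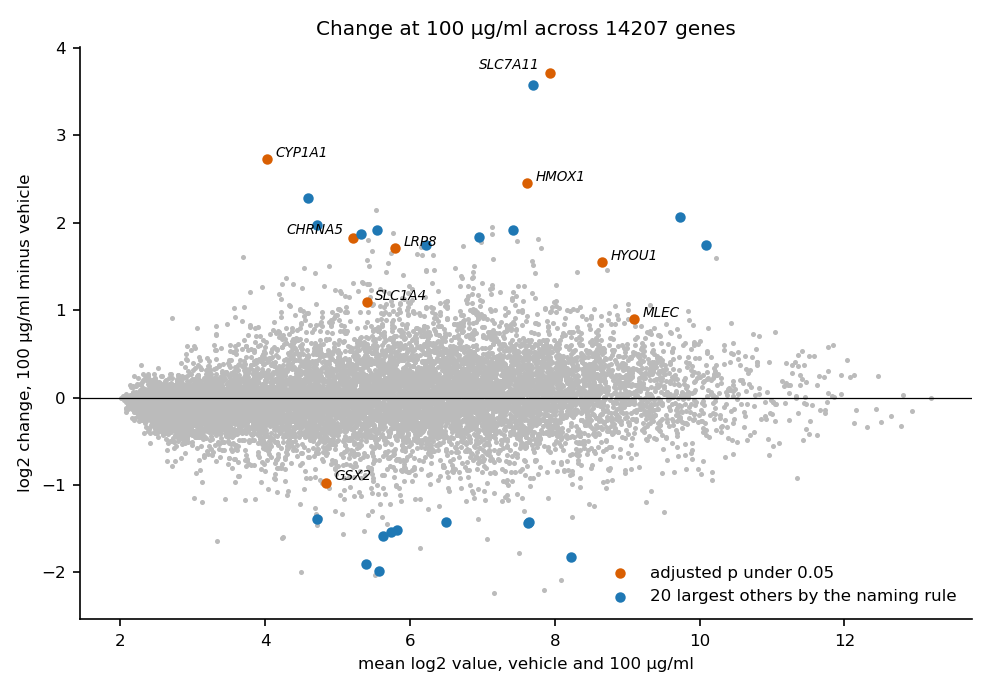
Change at 100 µg/ml against vehicle (vertical axis, log2) by the mean of both groups (horizontal axis, log2), 1 point per gene, with the 9 genes past an adjusted p of 0.05 in orange and named, and 20 large changes that did not pass in blue. CYP1A1, SLC7A11 and HMOX1 stand at 2.73, 3.71 and 2.46, and the dim genes at the left form a narrow band just under 0.

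Among genes of xenobiotic metabolism, CYP1A1, which oxidises polycyclic hydrocarbons and is the standard read-out of AHR, had vehicle values of 2.68, 2.66 and 2.65 and treated values of 5.21, 5.24 and 5.74. The vehicle arrays were at the bottom of the scale and all treated arrays far above them. CYP1A1 rose by 2.73 ± 0.19 log2 units (moderated SE, n = 3 per group, limma adjusted p = 0.0051) and was past the threshold in 19 of 19 other settings, where the change was 2.56 to 2.82. CYP1B1, a related enzyme also under AHR, was already bright, with vehicle values of 8.64, 8.37 and 9.09 and treated values of 10.53, 10.48 and 11.31. Its groups were clearly apart, yet its change of 2.07 ± 0.29 did not pass with limma (adjusted p = 0.0713), and it passed in 6 of the 19 settings. Of 11 AHR targets listed, 5 were measured alone, among which CYP1A1 rose and the median change was 0.02, or -0.15 to 0.18 with single arrays left out. ALDH3A1, an aldehyde dehydrogenase of the same list, had a change of -0.15 ± 0.11.

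Of the NRF2 targets, SLC7A11 and HMOX1 rose. SLC7A11, the transporter that brings in cystine for glutathione synthesis, had vehicle values of 6.33, 5.14 and 6.78 and treated values of 10.12, 9.90 and 9.37. Vehicle replicate 2 was the lowest, and the nearest arrays of both groups were still far apart. SLC7A11 rose 13.1-fold, by 3.71 ± 0.38 (limma adjusted p = 0.0475). HMOX1, the enzyme that breaks down haem, had vehicle values of 6.26, 6.53 and 6.38 and treated values of 9.29, 9.13 and 8.12. Treated replicate 3 lay below the other treated arrays and above every vehicle array. HMOX1 rose by 2.46 ± 0.29 (limma adjusted p = 0.0485).

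Genes of glutathione and thioredoxin that sit beside SLC7A11 did not pass over all genes, although their arrays separated. GCLM, the modifier subunit of the rate-limiting enzyme of glutathione synthesis, had vehicle values of 4.88, 5.57 and 5.61 and treated values of 7.57, 6.96 and 6.77, a change of 1.74 ± 0.31 (limma adjusted p = 0.130). The catalytic subunit gene GCLC had a change of 0.85 ± 0.26, and its groups, 6.12, 6.29 and 6.75 against 7.28, 7.36 and 7.06, did not overlap. TXNRD1, thioredoxin reductase, had a change of 0.85 ± 0.15, and SRXN1, which repairs peroxiredoxins, one of 0.66 ± 0.18. TXNIP, which binds and inhibits thioredoxin, lay the other way, with 10.42, 10.26 and 10.55 in vehicle and 9.76, 9.90 and 9.37 after condensate, groups apart and a change of -0.73 ± 0.17 (limma adjusted p = 0.193). PIR, a nuclear iron-binding protein gene, lay just outside the threshold, with 3.79, 3.70 and 4.14 in vehicle, 4.96, 5.34 and 5.10 after condensate and a change of 1.25 ± 0.18 (limma adjusted p = 0.0785). KEAP1, the inhibitor of NRF2, had 8.16, 9.04 and 8.14 against 8.55, 8.46 and 8.43, with overlapping groups.

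Over the whole NRF2 list, 24 of 36 listed genes were measured, and their median change was 0.76 against -0.05 for all genes. Of the 24, 20 lay above the vehicle mean and 4 below, where 40.8% of all genes lay above. At an unadjusted p under 0.05, 14 were higher and 0 lower, against 7.0% and 7.65% of all genes. The same number, 14, had treated arrays wholly above the vehicle arrays, against 6.41% of all genes. The mean of the list relative to its vehicle average was -0.05, -0.02 and 0.08 in the vehicle arrays and 0.87, 0.91 and 0.83 in the treated arrays. The treated arrays were close together, and leaving out any 1 array kept the median between 0.69 and 0.82. In these bulk samples, a difference in the make-up of the culture and a difference in RNA per cell cannot be told apart.

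Of enzymes that conjugate electrophiles or remove oxidants, the 13 measured glutathione S-transferase genes had a median change of 0.08, which ran from -0.08 without vehicle replicate 1 to 0.24 without vehicle replicate 3, and 0 passed over all genes. GSTA4, which conjugates lipid aldehydes, had a change of 0.88 ± 0.17 (limma adjusted p = 0.150), and the membrane-bound MGST1 one of 0.94 ± 0.23 (0.199). Genes of superoxide and peroxide removal, 14 measured, had a median of -0.02, which ran from -0.06 without treated replicate 2 to 0.14 without vehicle replicate 3. Their largest change was in GPX8, a peroxidase of the ER, with 7.06, 7.58 and 8.01 in vehicle and 8.60, 8.54 and 8.57 after condensate (1.02 ± 0.28). PRDX1, a cytosolic peroxiredoxin, had a change of 0.30 ± 0.09, and 6 metallothionein genes had a median of -0.17, which was -0.07 without vehicle replicate 2 and 0.10 over the members not among the dimmest genes.

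**Figure D2:**
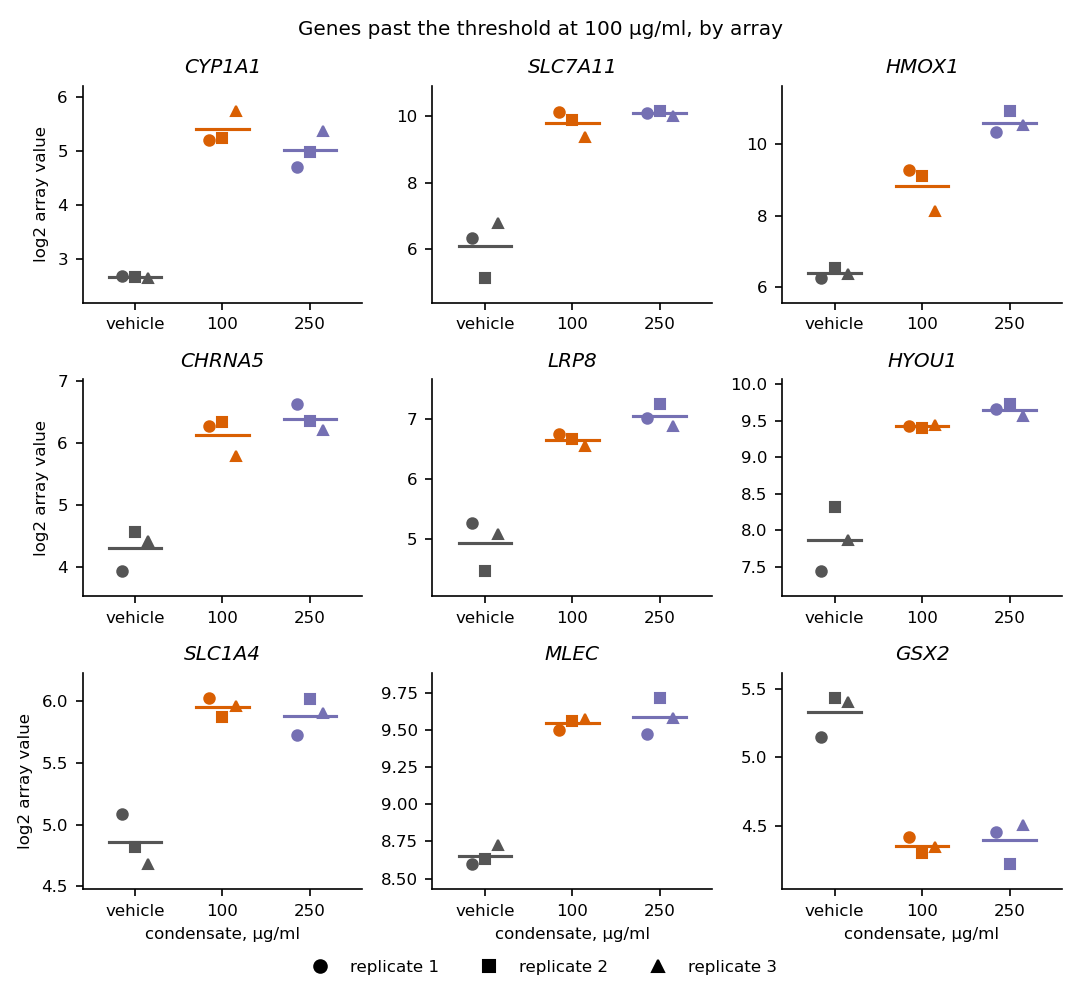
Log2 value on each array (vertical axis) of the 9 genes past the adjusted threshold, by group (vehicle, 100 and 250 µg/ml), with 1 point per array and a bar at each group mean. The vehicle and 100 µg/ml points do not overlap in any of the 9, and treated replicate 3 is the lowest of its group for SLC7A11, HMOX1, CHRNA5 and LRP8.

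Of the ER genes, HYOU1 and MLEC rose. HYOU1, an ER chaperone that works with BiP, had vehicle values of 7.45, 8.32 and 7.87 and treated values of 9.43, 9.41 and 9.45. The treated arrays agreed closely while the vehicle arrays spread, and HYOU1 rose by 1.55 ± 0.19 (limma adjusted p = 0.0487). MLEC, malectin, binds glucose-capped sugar chains on new glycoproteins. MLEC had 8.60, 8.63 and 8.73 in vehicle against 9.50, 9.56 and 9.58, narrow groups that were well apart, and rose by 0.90 ± 0.10 (limma adjusted p = 0.0485). HSPA5, which encodes BiP itself, had 7.86, 8.81 and 7.90 against 9.29, 9.22 and 8.32. Treated replicate 3 lay below vehicle replicate 2, so the groups overlapped, and the change of 0.75 ± 0.33 did not pass (limma adjusted p = 0.339).

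The ER chaperone and folding list had 25 of 30 genes measured, with a median change of 0.37. Of these, 22 lay above the vehicle mean, against 40.8% of all genes, and 2 rose over all genes. At an unadjusted p under 0.05, 12 were higher and 0 lower, against 7.0% and 7.65% of all genes. DNAJB11, a BiP co-chaperone, had a change of 0.62 ± 0.13 and FKBP14, a collagen-folding isomerase, one of 1.20 ± 0.26, with limma adjusted p of 0.173 and 0.181. List means were -0.30, 0.24 and 0.06 in vehicle and 0.52, 0.49 and 0.32 after condensate, without overlap. Vehicle replicate 1 was the lowest, and without it the median was 0.23.

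The list of XBP1 targets and ER-associated degradation genes, 32 of 38 measured, had a median of 0.29, with 14 higher and 1 lower at an unadjusted p under 0.05 and 0 over all genes. The shares of all genes at that p were 7.0% higher and 7.65% lower. Without treated replicate 2 the 14 became 9. SSR3, a subunit of the translocon-associated complex at the ER membrane, had 9.24, 8.95 and 9.48 in vehicle and 11.17, 11.08 and 10.66 after condensate. All treated arrays were above all vehicle arrays, with a change of 1.75 ± 0.24 (limma adjusted p = 0.0713). Other members of the entry route into the ER were SRPRB of the signal-receptor complex (1.20 ± 0.26), the signal peptidase gene SEC11C (1.52 ± 0.34) and the channel gene SEC61A1 (0.52 ± 0.13).

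Read through promoter letters, 22 measured genes held either ER stress element in the window described above, HYOU1 among them. These genes were split, 12 above and 10 below the vehicle mean, where 40.8% of all genes lay above, with a median change of 0.11. At an unadjusted p under 0.05, 6 were higher and 1 lower, against 7.0% and 7.65% of all genes. CRELD2, an ER co-chaperone, had a change of 1.12 ± 0.26, the lectin chaperone genes CANX and CALR changes of 0.47 ± 0.15 and 0.39 ± 0.15, and HERPUD1, which serves ER-associated degradation, one of -0.15 ± 0.24. CRELD2, CANX, CALR and HERPUD1 were named after their values were seen.

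Transcription factors of the stress relay did not pass the test. DDIT3, which encodes the pro-death factor CHOP, had 4.74, 5.77 and 6.35 in vehicle and 3.97, 4.61 and 5.10 after condensate, overlapping groups with the treated mean lower by 1.06 (SE 0.48, limma adjusted p = 0.354). The changes of ATF4, ATF3 and XBP1 were -0.25 ± 0.24, -0.28 ± 0.26 and 0.28 ± 0.32. Of 39 measured genes in the ATF4 and CHOP list, SLC7A11 and SLC1A4 rose, and 13 were higher and 2 lower at an unadjusted p under 0.05, around a median of 0.09 that was 0.03 without treated replicate 1. The shares of all genes at that p were 7.0% higher and 7.65% lower. The 13 became 7 without treated replicate 1 or 2, and the 2 became 7 without vehicle replicate 1. SLC3A2, the heavy chain that carries SLC7A11 to the membrane, had a change of 0.74 ± 0.13 (limma adjusted p = 0.130).

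Amino acid supply showed some of the largest values. PSAT1, the aminotransferase of serine synthesis, had 6.34, 5.70 and 5.69 in vehicle and 10.13, 10.29 and 8.04 after condensate. The lowest treated array, replicate 3, lay about midway between the other treated arrays and the vehicle arrays, and the 11.9-fold change of 3.57 ± 0.61 did not pass (limma adjusted p = 0.130). PHGDH, the first enzyme of that pathway, had a change of 1.01 ± 0.25 and ASNS, asparagine synthetase, one of 1.25 ± 0.46. All 11 measured genes of serine and one-carbon synthesis, of 18 listed, lay above the vehicle mean, against 40.8% of all genes. Their median was 0.49, with 6 higher at an unadjusted p under 0.05, against 7.0% of all genes, and 0 past the adjusted threshold. Without treated replicates 1 or 2 the 6 became 2, and list means of 0.94, 1.09 and 0.39 in the treated arrays show replicate 3 as the low one, above the highest vehicle array at 0.06.

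SLC1A4, a transporter of serine, alanine and threonine, had 5.09, 4.82 and 4.68 in vehicle against 6.03, 5.87 and 5.96. The groups were apart by more than the width of either, and SLC1A4 rose by 1.09 ± 0.13 (limma adjusted p = 0.0485). It kept its place past the threshold in 3 of the 19 other settings, the fewest of the 9 genes. Across 28 measured amino acid transporters, SLC7A11 and SLC1A4 rose and the median was 0.06 (0.02 to 0.11 with single arrays left out), or 0.31 over the members not among those dimmest genes. SLC6A6, the taurine transporter, had a change of 1.11 ± 0.29 (limma adjusted p = 0.203).

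At the cell surface, CHRNA5 and LRP8 rose. CHRNA5 encodes an accessory subunit of nicotinic acetylcholine receptors, with 3.93, 4.57 and 4.42 in vehicle and 6.28, 6.33 and 5.80 after condensate. The groups were well apart, and CHRNA5 rose by 1.83 ± 0.21 (limma adjusted p = 0.0485). None of the other 11 measured subunits of the family passed. The median of all 12 was -0.05 (-0.10 to -0.00080 with single arrays left out), and CHRNA9, CHRNB3 and CHRNA6, all with vehicle values under 3.08, had changes of -0.27, -0.22 and -0.15. LRP8, a receptor for apolipoprotein E and reelin, had 5.27, 4.47 and 5.09 against 6.75, 6.67 and 6.55, with vehicle replicate 2 the lowest and no overlap. LRP8 rose by 1.71 ± 0.20 (limma adjusted p = 0.0485). Of 11 lipoprotein receptor genes it alone passed. The very large receptor LRP1B, dim with a vehicle mean of 3.42, had a change of -0.40 ± 0.14.

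GSX2, a homeobox gene of the developing forebrain, had 5.14, 5.43 and 5.40 in vehicle and 4.42, 4.30 and 4.34 after condensate. The groups were narrow and apart, and GSX2 fell by 0.97 log2 units (SE 0.12, limma adjusted p = 0.0487). Just outside the threshold came ALDH5A1, an aldehyde dehydrogenase of GABA breakdown (0.77, limma adjusted p = 0.0526), named after its values were seen. Each of the 9 changes kept its sign in all 19 settings, but the number past the threshold did not hold. SLC7A11, HYOU1 and HMOX1 passed in 8 settings, LRP8 and CHRNA5 in 7, and GSX2 and MLEC in 5. The count was 1 without vehicle replicate 1, 57 without vehicle replicate 3, and 1, 1 and 2 without treated replicates 1, 2 and 3. It was 1 when any of the 3 arrays of 250 µg/ml, which lend their spread to the fit, was left out.

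Large changes outside the threshold were named by a rule. It asked for a limma unadjusted p under 0.01, arrays that did not overlap and a higher group mean above the median of gene means. Some larger changes did not meet it. Among the 10 largest rises that did were several genes with 1 array of a group far from the others. GPAT3, an enzyme of triglyceride synthesis, had 3.54, 3.10 and 3.71 in vehicle and 6.47, 6.26 and 4.47 after condensate (2.28 ± 0.63, limma adjusted p = 0.211). DUSP6, a phosphatase that restrains ERK, had 3.66, 3.48 and 4.05 against 5.80, 6.46 and 4.86 (1.97 ± 0.36, limma adjusted p = 0.134). ETV1, an ETS factor, had 7.09, 5.01 and 7.30 against 8.25, 8.66 and 8.25 (1.92 ± 0.52, limma adjusted p = 0.210). Replicate 3 was the low treated array in the first 2 genes and vehicle replicate 2 the low array in ETV1. BRCA1, a DNA repair gene, and SPC25, of the kinetochore, had changes of 1.91 ± 0.49 and 1.87 ± 0.46. ELOVL6, a fatty acid elongase, had 6.01, 5.80 and 6.28 against 7.93, 8.12 and 7.55, a change of 1.84 ± 0.28 (limma adjusted p = 0.0919). CYP1B1, GCLM, PSAT1 and SSR3, described above, were also among the 10 largest rises. The rule required non-overlapping arrays of each of these 10 genes.

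The 10 largest falls were named by the same rule. Among them, CRB2, a cell polarity gene, had 6.65, 7.05 and 6.00 in vehicle and 4.27, 4.19 and 5.29 after condensate. Its mean was lower by 1.99 (SE 0.35, limma adjusted p = 0.130). NEBL, an actin-binding protein gene, had 8.82, 9.44 and 9.13 against 6.64, 7.48 and 7.80. IL7R, the interleukin 7 receptor, had 6.14, 7.13 and 6.47 against 4.78, 4.92 and 5.49. In these 3 genes the groups were apart, as the rule required, and treated replicate 3 was the array nearest to vehicle. Of all genes, 11.9% were lower without overlap. TGM1, a transglutaminase of epithelia, had a change of -1.91, the AP-1 gene JUNB one of -1.59 and the semaphorin gene SEMA4A one of -1.54. TCP11L2, ITGB4 (an integrin of basal attachment), the kinase gene CDK18 and the selenium carrier SELENOP had changes of -1.43, -1.43, -1.42 and -1.39. None of these 10 passed, with limma adjusted p of 0.130 to 0.222.

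**Figure D3:**
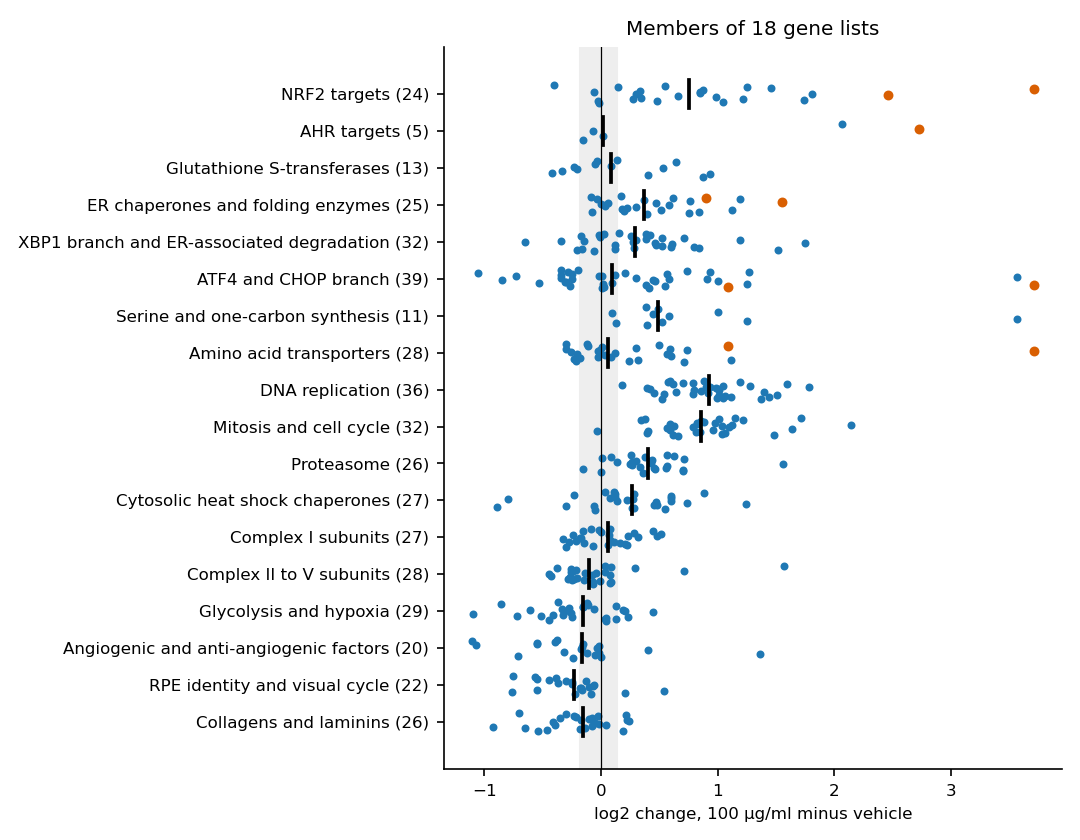
Change at 100 µg/ml against vehicle (horizontal axis, log2) for the members of 18 gene lists, 1 dot per gene, orange where past the adjusted threshold, with a black bar at each list's median and a grey band between the quartiles of all genes. DNA replication, mitosis and NRF2 targets have medians of 0.92, 0.85 and 0.76, and the lists of pigment epithelium identity and of collagens and laminins have medians below 0.

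Nearly all measured genes of the cell cycle lists lay above the vehicle mean after condensate, with 0 past the adjusted threshold. All 36 measured DNA replication genes of 42 listed lay above the vehicle mean, against 40.8% of all genes, with a median of 0.92. At an unadjusted p under 0.05, 22 were higher, against 7.0% of all genes. UHRF1, which maintains DNA methylation, had a change of 0.93 ± 0.18. GINS1 of the replicative helicase had 6.21, 5.42 and 6.85 in vehicle and 7.79, 7.90 and 7.10 after condensate, a change of 1.44 ± 0.35, and the polymerase subunit gene POLD3 one of 1.40 ± 0.37. List means were 0.17, -0.56 and 0.39 in the vehicle arrays and 1.08, 1.31 and 0.39 in the treated arrays. Treated replicate 3 stood level with vehicle replicate 3, so the groups overlapped, and vehicle replicate 2 was far below the rest. The count of 22 became 14 without vehicle replicate 2, and 11 and 12 without treated replicates 1 and 2.

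For mitosis and cell cycle control, 31 of 32 measured genes lay above the vehicle mean, with a median of 0.85. At an unadjusted p under 0.05, 24 were higher, against 7.0% of all genes, and the count was 15 without vehicle replicate 2. List means of 0.12, -0.46 and 0.35 in vehicle and 0.88, 1.10 and 0.72 after condensate did not overlap. CCNB2, a mitotic cyclin, had 5.80, 5.64 and 6.16 against 6.92, 6.94 and 6.61, and a change of 0.96 ± 0.16 (limma adjusted p = 0.130). CCNA2, the cyclin of S phase and mitosis, had a change of 1.04 ± 0.23, the spindle checkpoint kinase TTK one of 1.06 ± 0.24 and the spindle motor KIF11 one of 1.64 ± 0.39. MKI67, the usual marker of cycling cells, had 7.42, 5.36 and 5.88 in vehicle and 7.46, 7.65 and 6.92 after condensate. Vehicle replicate 1 lay within the treated range for that gene, and its change of 1.12 ± 0.47 did not pass (limma adjusted p = 0.325).

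The p53 targets, 21 measured, had a median of -0.04, which was 0.08 without vehicle replicate 2 and -0.12 and -0.11 without vehicle replicates 1 and 3. At an unadjusted p under 0.05, 4 were higher and 0 lower, against 7.0% and 7.65% of all genes. These counts were 1 and 2 without treated replicate 3, 2 and 3 without vehicle replicate 1, and 2 and 0 without treated replicate 1. MDM2, the ubiquitin ligase that p53 induces against itself, had 8.37, 8.46 and 8.44 in vehicle and 9.14, 9.20 and 8.98 after condensate. Both groups were narrow and apart, with a change of 0.68 ± 0.10 (limma adjusted p = 0.0917). CDKN1A, the cell cycle inhibitor p21, had a change of 0.59 ± 0.24. Of 15 BCL2 family genes, 13 lay below the vehicle mean and 0 passed, with BCL2 at -0.41 ± 0.18 and BAX at -0.51 ± 0.31, and the median of -0.23 was -0.38 without vehicle replicate 1 or treated replicate 3. Of all genes, 40.8% lay above the vehicle mean.

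**Figure D4:**
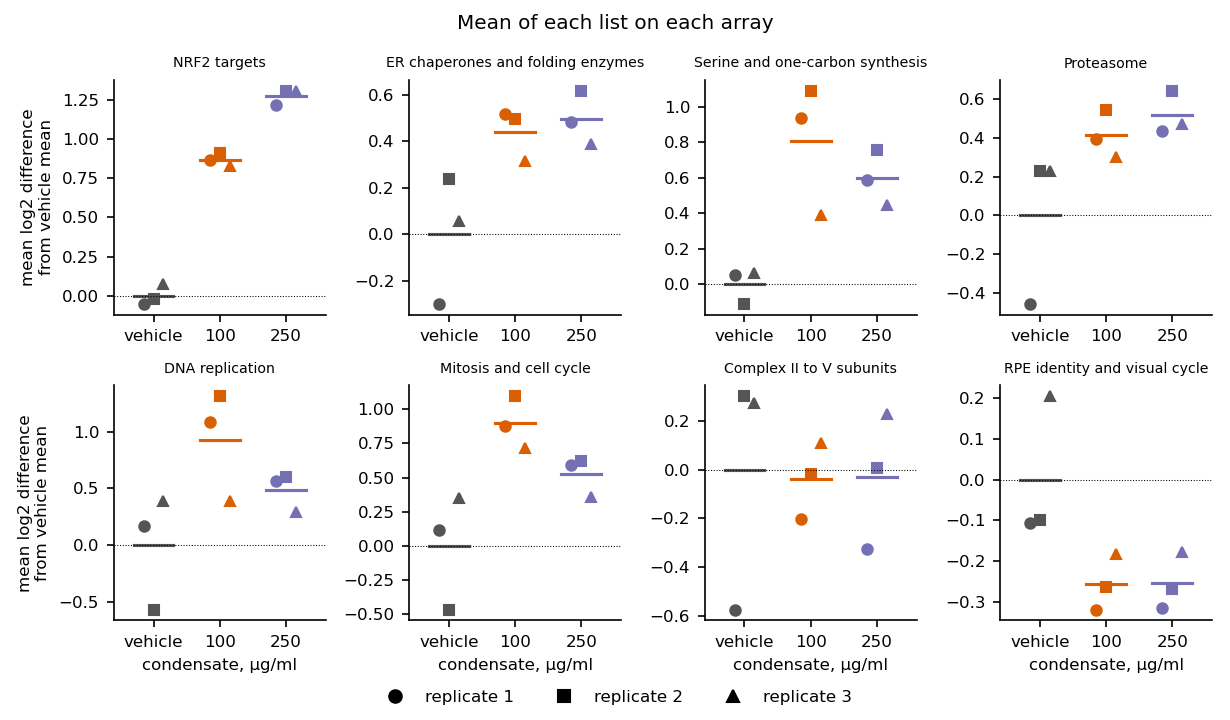
Mean of each of 8 gene lists on each array relative to the list's average in vehicle (vertical axis, log2), by group, with the marker shape giving the replicate number. The NRF2 list is tight in the treated arrays (0.83 to 0.91), whereas DNA replication runs from 0.39 to 1.31 there and from -0.56 to 0.39 in vehicle.

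In protein quality control outside the ER, proteasome genes, 26 measured of 33, had a median of 0.40 with 24 above the vehicle mean, against 40.8% of all genes. However, the median was 0.09 without vehicle replicate 1, whose list mean of -0.46 stood under the other vehicle arrays at 0.23. PSMA4 of the core particle had a change of 0.70 ± 0.14 (limma adjusted p = 0.140). PSMA3, another core subunit, had 6.65, 7.25 and 6.81 in vehicle against 9.25, 8.55 and 7.59, a change of 1.56 ± 0.39. The 27 measured cytosolic heat shock genes had a median of 0.27, which was 0.16 without treated replicate 2, with 7 higher and 3 lower at an unadjusted p under 0.05, and 4 and 3 without vehicle replicate 1. The shares of all genes at that p were 7.0% higher and 7.65% lower. HSPA14 and HSPH1 had changes of 0.88 and 0.60, and HSPA2 and the small heat shock gene HSPB1 changes of -0.89 and -0.80. Autophagy and lysosome genes had a median of -0.12 over 19 (-0.21 without vehicle replicate 1, -0.06 without vehicle replicate 2 or 3, and -0.08 without treated replicate 3). The autophagosome gene MAP1LC3B had a change of 0.89 ± 0.32 with overlapping groups (limma adjusted p = 0.274). Its relative MAP1LC3A, dim with a vehicle mean of 3.30, had a change of -0.28 ± 0.12.

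Mitochondrial genes, which the series title asks about, had 0 members past the threshold. The 27 measured subunits of complex I had a median of 0.06, and its sign turned without vehicle replicate 1 (-0.12) or treated replicate 2 (-0.0046). At an unadjusted p under 0.05, 1 was higher and 0 lower, against 7.0% and 7.65% of all genes. That 1 was NDUFA12, with a change of 0.45 ± 0.14. The 28 measured subunits of complexes II to V had a median of -0.11, which was 0.04 and 0.08 without vehicle replicates 2 and 3, 0.02 without treated replicate 1 and -0.35 without vehicle replicate 1. Vehicle replicate 1 had list means of -0.49 and -0.57, below every other array of the comparison in both lists. SDHC of complex II had 4.23, 3.75 and 5.90 against 6.76, 5.27 and 6.56, with overlapping groups. Of biogenesis and dynamics genes, 16 measured with a median of -0.03 (-0.12 without vehicle replicate 1, -0.07 without vehicle replicate 2 or 3 and -0.11 without treated replicate 3), TFAM, which packs mitochondrial DNA, had a change of 0.49 ± 0.21 and PINK1, a kinase that marks damaged mitochondria, one of -0.59 ± 0.23. Among 20 citrate cycle genes (median 0.12, and 0.03 to 0.21 with single arrays left out), IDH1 and ACO1, both of the cytosol, had changes of 1.09 ± 0.20 and 0.57 ± 0.11.

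Lists of the differentiated epithelium and its surroundings had medians below that of all genes, and 0 of their members passed. Of 22 measured genes of pigment epithelium identity and the visual cycle, 20 lay below the vehicle mean, with a median of -0.23 that was -0.14 without vehicle replicate 3. Over the members not among those dimmest genes it was -0.33. Of all genes 40.8% lay above the vehicle mean, and of those dimmest genes 16.4% did. KRT8, the epithelial keratin, had 10.97, 11.49 and 11.43 in vehicle and 10.54, 10.75 and 10.94 after condensate, a change of -0.55 ± 0.23 (limma adjusted p = 0.327). Its groups only just missed overlapping, at 10.97 and 10.94, and 11.9% of all genes were lower without overlap. RPE65, the visual cycle isomerase, had a change of -0.25 at values of 2.33 to 2.69, in the dim range where most genes lay lower.

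Angiogenic and anti-angiogenic factors, 20 measured, had a median of -0.17 with 6 lower and 1 higher at an unadjusted p under 0.05, against 7.65% and 7.0% of all genes. The median was -0.25 without vehicle replicate 1 and -0.26 without treated replicate 3. VEGFA, the main vessel growth factor, had 7.56, 8.47 and 8.07 in vehicle and 7.16, 7.07 and 6.54 after condensate, apart in all arrays, with a change of -1.11 ± 0.26 (limma adjusted p = 0.195). TIMP3, a protease inhibitor deposited under the pigment epithelium, had 10.14, 9.18 and 10.30 against 8.82, 8.83 and 8.74, and SERPINF1, the anti-angiogenic factor PEDF, had a change of -0.55 ± 0.15. The lower values thus held a gene that promotes vessels and others known to restrain them, none past the adjusted threshold. The largest change of the list was a rise, at 1.37, in a gene not named here.

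Complement genes and their regulators had a median of -0.17 over 20, and -0.29 over the members not among those dimmest genes, with the inhibitory proteins SERPING1 and CFI at -0.95 ± 0.34 and -0.42 ± 0.15. Metalloproteinases and their inhibitors had a median of -0.13 over 21, -0.07 without vehicle replicate 2 and -0.33 without those dimmest genes, with ADAMTS5, which cleaves aggrecan, at -1.77 ± 0.62. Collagens and laminins, 26 measured, had a median of -0.15, or -0.09 without treated replicate 3. Glycolysis and hypoxia genes had a median of -0.15 over 29 that was 0.03 without treated replicate 3, whose list mean of -0.68 stood apart from 0.02 and 0.04 in the other treated arrays. NDRG1, a hypoxia-responsive gene, had 9.76, 9.98 and 10.01 in vehicle against 9.24, 9.20 and 8.72, a change of -0.86 ± 0.16 (limma adjusted p = 0.133).

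Inflammatory genes driven by NF-kB had a median of -0.14 over 24, -0.24 without treated replicate 1. IL1B, IL6 and CXCL8 all lay near the bottom of the scale, with vehicle means of 2.85, 2.91 and 2.84. IL1B had 3.00, 2.67 and 2.90 in vehicle and 3.31, 3.39 and 3.25 after condensate (limma adjusted p = 0.217). The changes of IL6 and CXCL8 were -0.09 ± 0.14 and 0.09 ± 0.16, and those of CXCL2 and ICAM1 -0.32 ± 0.12 and -0.36 ± 0.15. Genes of TGF-beta signalling and epithelial-mesenchymal transition had a median of -0.09 over 25. That median was -0.04 without vehicle replicate 1 or 2 and -0.18 without vehicle replicate 3. In this list the repressor ZEB2 and SMAD6 had changes of -0.71 ± 0.15 and -0.84 ± 0.30, and LTBP1 and TGFBR2 changes of 0.42 ± 0.16 and 0.50 ± 0.20. Tight junction genes had a median of -0.09 over 18, which was -0.04 and -0.05 without vehicle replicates 1 and 2 and -0.03 without treated replicate 3. Of the marker lists of other cells, 9 of 10 fibroblast genes lay below the vehicle mean (median -0.26, and -0.15 without vehicle replicate 2), all 4 with an unadjusted p under 0.05 (DPT, LUM, DCN and POSTN) having vehicle values under 3.09. Without those dimmest genes the fibroblast median was -0.05. Of those dimmest genes 16.4% lay above the vehicle mean, against 40.8% of all genes. Endothelial, leukocyte, photoreceptor and neuron, and melanocyte markers had medians of -0.07, -0.05, -0.14 and -0.14. The endothelial median was -0.13 and -0.03 without treated replicates 1 and 3 and -0.05 without vehicle replicate 2. The leukocyte median was -0.11, -0.03 and 0.04 without treated replicates 1, 2 and 3, and the photoreceptor and neuron median -0.09 without treated replicate 3.

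**Figure D5:**
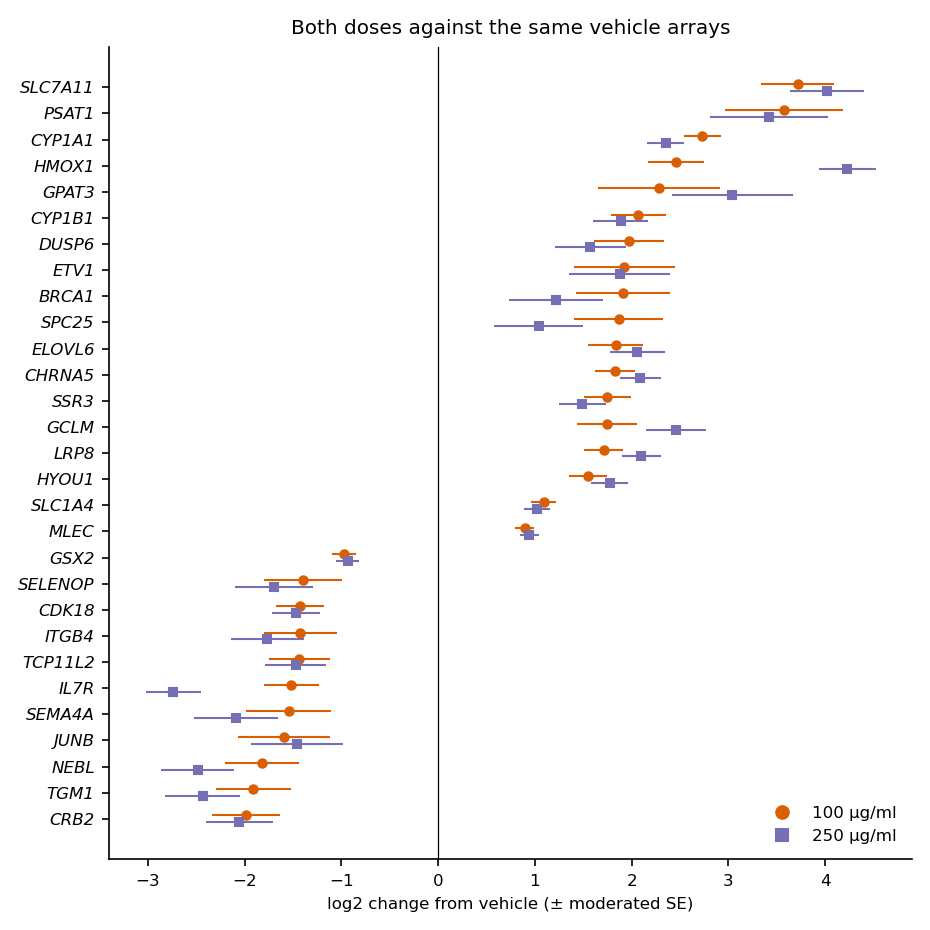
Change against vehicle (horizontal axis, log2, with the moderated SE) at 100 and at 250 µg/ml for the 9 genes that passed at 100 µg/ml and the 20 largest other changes. Both doses are set against the same 3 vehicle arrays, and HMOX1 shows the widest gap, 2.46 against 4.23.

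The 2 doses share their vehicle arrays, so their changes against vehicle are set side by side, and the dose difference was tested directly between the arrays of 100 and 250 µg/ml. Against vehicle, 0.549% of genes passed at 250 µg/ml, 78 of 14207. Between the doses limma called 0 genes at an adjusted p under 0.05 and 262 at an unadjusted p under 0.05, 1.84% of those tested, of which 140 (0.985%) were higher and 122 (0.859%) lower at 250 µg/ml. The 262 became 132 without treated replicate 2 of the lower dose and 739 without its replicate 3. Arrays of the same number at both doses deviated together, with correlations of 0.60, 0.44 and 0.68, and with the replicate number as a block the count was 467, with 0 past the adjusted threshold.

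HMOX1 had 9.29, 9.13 and 8.12 at the lower dose and 10.36, 10.94 and 10.54 at the higher. The doses did not overlap, and the difference of 1.77 (95% interval 1.10 to 2.44) had the smallest unadjusted p of all genes, 0.000247 with limma, but an adjusted p of 1.00. Across the other settings the difference was 1.41 to 1.99, with a lowest adjusted p of 0.083. For CYP1A1 the higher dose gave 4.71, 4.98 and 5.37, within or below the range of the lower dose, and the difference was -0.38 (95% interval -0.82 to 0.06). SLC7A11 differed by 0.30 (-0.56 to 1.17), CHRNA5 by 0.26 (-0.22 to 0.74), LRP8 by 0.39 (-0.07 to 0.85) and HYOU1 by 0.22 (-0.22 to 0.66). The narrowest intervals were those of MLEC, 0.04 (-0.18 to 0.27), GSX2, 0.04 (-0.24 to 0.31), and SLC1A4, -0.07 (-0.37 to 0.23). These intervals bound the dose difference and do not show that the doses act alike. They come from the fit without the replicate block. With the block, the CYP1A1 difference had an SE of 0.15 and an unadjusted limma p of 0.042, and HMOX1 had a p of 0.00038. The rest of the genes that passed at 100 µg/ml had a p of 0.10 to 0.77, and none passed the adjusted threshold.

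At the level of lists, 22 of 24 NRF2 targets were higher at 250 than at 100 µg/ml, where 54.4% of all genes were, with a median difference of 0.32 against 0.01 for all genes. With single arrays left out, 19 to 22 were higher, and the median lay between 0.31 and 0.42. The list means at 250 µg/ml, 1.22, 1.31 and 1.31, lay above all those at 100 µg/ml.

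Cell cycle genes lay the other way. All 36 DNA replication genes were lower at the higher dose, where 45.6% of all genes were, with a median of -0.44 that was -0.24 without replicate 2 of the lower dose and -0.72 without its replicate 3, and -0.68 under array weights. Without replicate 1 of the lower dose 34 were lower. At an unadjusted p under 0.05, 3 were lower, against 0.859% of all genes. Of 32 mitosis genes, 28 were lower, with a median of -0.38 that was -0.24 without replicate 2 of the lower dose. MKI67 had a change against vehicle of 1.12 at 100 µg/ml and of 0.23 at 250 µg/ml. The direct difference between the doses was -0.89 (95% interval -1.96 to 0.17). Glycolysis and hypoxia genes were lower at 250 µg/ml in 25 of 29 cases. Their median of -0.21 was -0.12, -0.10 and -0.44 without replicates 1, 2 and 3 of the lower dose and -0.08 without replicate 3 of the higher, and -0.34 under array weights. The ER chaperone list had a median dose difference of 0.03, whose sign turned without replicate 3 of the lower dose (-0.05) or replicate 2 of the higher (-0.02). IL7R, lower than vehicle by 1.52 and 2.74 at the respective doses, differed between them by -1.22 (95% interval -1.87 to -0.57). That interval is not adjusted for the number of genes, and the difference did not pass the adjusted threshold.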

How the data were processed

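The deposited values are log2 summaries, 1 per probe set of an exon array, from whole-transcript sense targets per the labels' protocols. RMA, Partek and build hg18 are named in the submitters' processing notes, with no versions, settings or filters in the sources used here. RMA removes background and scales the arrays together, which shrinks fold changes of dim genes and hides changes in total RNA. No detection calls were used.

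Of 17629 probe sets, 14378 have 1 gene, 2405 several and 846 none. Gene numbers were matched to current symbols in a RefSeq table (GRCh38.p14), and 28 had no match. For 169 genes with several probe sets the one with the highest mean was kept, leaving 14207 genes. NQO1 and other genes read only from shared probe sets are not analysed here. Of the genes that passed, HMOX1, SLC7A11 and CHRNA5 have no entry in the promoter table used.

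All 9 arrays were fitted with limma 3.58.1 (R 4.3.3), 1 mean per group, eBayes moderation and Benjamini-Hochberg adjusted p over 14207 genes, threshold 0.05. Errors are moderated SEs with n = 3 per group. The scripts were tested on simulated data. The members and the 38 gene lists were chosen with earlier results of these data known. Named genes were drawn from all genes past the threshold, the 10 largest other rises and 10 largest other falls (unadjusted p under 0.01, arrays not overlapping, higher group above the median of gene means), up to 4 members per list by p, and 30 fixed genes of which 27 were measured (AHRR, TIPARP and NFE2L2 were not measured alone). Arrays numbered alike at 100 and 250 µg/ml deviated together (correlations 0.44 to 0.68), a pairing seen in the data and not stated in the labels. The dose comparison therefore also gives its count, and p-values of the genes that passed at 100 µg/ml, with a replicate block. The main fit takes all 9 arrays as independent, so the adjusted p-values of 100 µg/ml against vehicle rest on that too. Alternatives covered scaling, array weights, moderation, probe set choice, a replicate block, the arrays fitted and each array left out.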

Additional observations from a re-analysis of the deposited data

How the results depend on the processing

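The signs of the 9 genes held under every setting tried, and their number did not. Against 9 genes, 8 higher and 1 lower, the 6 arrays of the comparison alone gave 1 (1 higher, 0 lower), quantile normalization 4 (3 higher), array weights 73 (44 higher, 29 lower), and a fit of all deposited probe sets gave 1 (1 higher, 0 lower). Leaving out the arrays numbered 3 of both doses gave 47 (22 higher, 25 lower). The number lower was 0 without the 3552 dimmest genes and 0 with an intensity trend and robust moderation. With single arrays left out the count ran from 1 to 57, from 1 to 48 higher and from 0 to 9 lower. With the replicate block 3 genes passed, 3 higher and 0 lower, of which CYP1A1 was 1 of the 9. Deviations of vehicle and treated arrays of the same number correlated at 0.26, -0.14 and 0.03, so the numbers were not taken to pair them. Between the doses 0 genes passed under any setting tried, with 262 at an unadjusted p under 0.05, 2276 under array weights, 467 with the replicate block and 247 to 342 under the other fits of all 9 arrays to all genes or probe sets. Probe sets that name several genes or none gave 0 past the threshold, with 340 and 104 at an unadjusted p under 0.05. Precision is limited by 3 arrays per group and the spread of the vehicle arrays, and values near the bottom of the scale do not tell whether a gene is expressed.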
